A study of Mus musculus with 20 samples.

Results

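The 10 genes described here build, coat and break down lipid droplets: Plin2, Plin3, Soat1, Nceh1, Dgat1, Dgat2, Pnpla2, Hilpda, Ch25h and Mgll. They were taken by symbol from the deposited expression values, in which each of the 10 was found among 21315 gene symbols, and were followed through 20 RNA-seq libraries of microglia sorted from the brains of 9-month-old C57BL/6 mice. APP-KI mice carry a humanized amyloid precursor protein gene with the Swedish, Iberian and Arctic mutations (APP NL-G-F) at the endogenous locus and deposit amyloid-β plaques. C3aR-KO mice lack C3ar1, the receptor for the complement fragment C3a, in all cells. The groups were WT (3 libraries), APP-KI (3), C3aR-KO (3) and APP-KI; C3aR-KO (5), all from CD45 and CD11b sorting, together with WT, C3aR+ (3) and APP-KI, C3aR+ (3), which were sorted in addition on a Td-tomato reporter placed at C3ar1. The labels do not say that each library came from a separate mouse, so the p-values below measure the spread between these libraries, which may be technical.

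A lipid droplet is a core of neutral lipid, triglyceride and cholesteryl ester, under a phospholipid monolayer to which coat proteins bind. Triglyceride is made by the diacylglycerol acyltransferases Dgat1 and Dgat2 and cholesteryl ester by Soat1, and the stores are released again by lipases such as Pnpla2 (ATGL), Mgll and the cholesteryl ester hydrolase Nceh1. Microglia clear myelin and dying cells, take up their lipid and can store it in droplets, and droplet-filled microglia are known from aged and amyloid-bearing brain.

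The questions put to these genes were whether they differ between APP-KI and WT microglia, with and without selection on the C3aR reporter, and whether loss of C3ar1 moves them. Values are given as scaled values, the deposited values multiplied by 35.2 so that they read approximately as CPM. A gene is said to have passed the test, or to have risen or fallen, where limma on log2(scaled value + 1) gave an adjusted p under 0.05, with p adjusted over all genes tested.

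Depth ran from 13939559 to 30388941 reads in the C3aR+ libraries and from 42239056 to 76608464 in the others. 5 libraries stand apart. 4 of them, APP-KI replicate 4, C3aR-KO replicates 1 and 2, and APP-KI; C3aR-KO replicate 1, had 8076 to 8939 genes at 0 in spite of 42239056 to 69483570 reads, and are called sparse below. APP-KI replicate 5 had 107 genes at 0, and the other 15 libraries 3876 to 6438. All 4 sparse libraries belong to library series 24, one of 3 such series numbered in the library names, so results resting on them are also given without them. The 6 C3aR+ libraries form a library series of their own. According to the paper, their mice came from a cross with the Td-tomato reporter line (C3ar1 fl/fl), and the other mice from the C3aR-KO cross. The reporter sort, the cross and that series therefore cannot be told apart.

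C3ar1 itself had scaled values of 39.9 to 68.1 in C3aR-KO and 61.9 to 80.4 in APP-KI; C3aR-KO, below the 276 to 340 of WT and the 165 to 388 of APP-KI. The APP-KI, C3aR+ libraries had 201 to 383. The libraries labelled WT, C3aR+ had 37.6 to 81.2, overlapping the knockouts and below all other libraries, so the C3ar1 reads do not show the selection in WT. Microglial markers were high in all 20 libraries: 7 of them summed to scaled values from 8860 to 28900, and none was at 0 in any library. The sums differed between groups, at 26600 to 28900 in WT and 10200 to 21600 in APP-KI.

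In WT microglia the droplet genes spanned a wide range of levels. Per kilobase of merged exon, the scaled value of Pnpla2 was highest (36.1 ± 2.70, SD, n = 3), followed by Soat1 (18.4 ± 1.29), Mgll (14.7 ± 0.815), Plin2 (12.3 ± 3.62) and Dgat1 (9.83 ± 1.01). Nceh1 (4.87 ± 0.945 per kb) and Plin3 (4.84 ± 1.24) overlapped each other below these, and Hilpda, Dgat2 and Ch25h lay lowest at means of 1.78, 1.35 and 1.15 per kb, each overlapping its neighbour. Libraries of WT did not overlap between Pnpla2 and Soat1, Soat1 and Mgll, Dgat1 and Nceh1, or Plin3 and Hilpda, and did between the other neighbours.

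In APP-KI, C3aR+ microglia Soat1 had the highest mean, and 5 genes formed a chain in which only neighbours are compared. Soat1 had 39.3 ± 7.87 per kb, Nceh1 27.3 ± 5.81, Ch25h 26.6 ± 7.72, Plin2 25.2 ± 6.80 and Pnpla2 22.7 ± 1.95 (n = 3), and each overlapped the next. Soat1 and Pnpla2 did not overlap: the lowest Soat1 library had 32.5 per kb and the highest of Pnpla2 24.8. Mgll (8.90 per kb), Dgat1 (8.86) and Plin3 (8.63) followed with overlapping libraries, all below Pnpla2, and Dgat2 (3.64) and Hilpda (3.53) were last. Ch25h therefore stood at place 10 of 10 in both WT groups and in C3aR-KO, at place 3 in APP-KI, C3aR+, at place 5 in APP-KI and at place 4 in APP-KI; C3aR-KO. Without the division by length it stood at place 10 in the first 3 groups and at places 6, 8 and 6 in the others. In these last groups too Soat1 came first, with 32.1 ± 4.79 per kb in APP-KI (n = 3) and 37.1 ± 7.26 in APP-KI; C3aR-KO (n = 5), and overlapped Pnpla2.

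**Figure D1:**
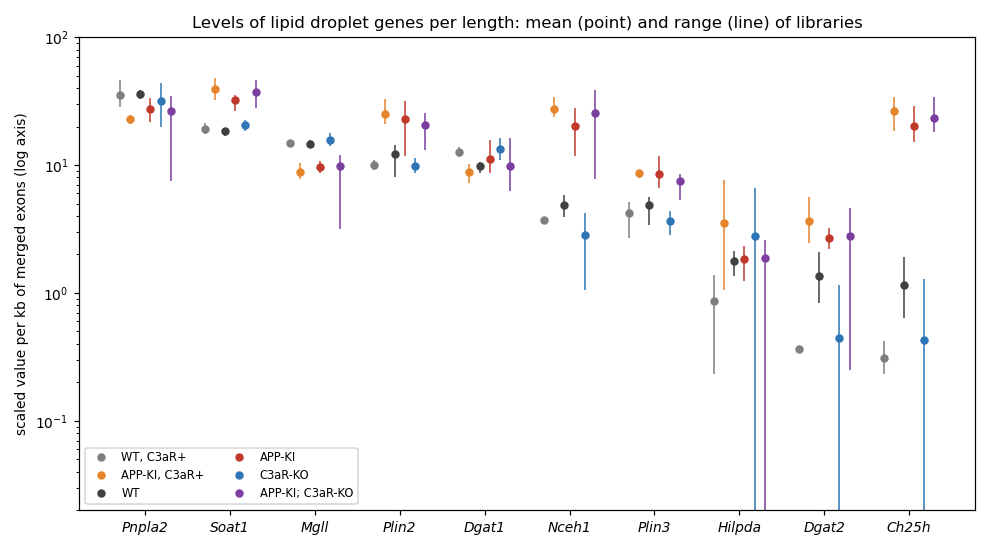
Scaled value per kilobase of merged exon (log axis) of each of the 10 genes in the 6 groups; points are group means and lines the range of the libraries, which run to the foot of the axis where a library has 0 reads. Ch25h lies at the foot of the order in WT, C3aR+ (mean 0.310) and reaches 26.6 in APP-KI, C3aR+, whereas Pnpla2 goes from 35.6 to 22.7.

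Between APP-KI, C3aR+ and WT, C3aR+ microglia, 6 of the 10 genes rose (Plin2, Plin3, Soat1, Nceh1, Dgat2 and Ch25h) and 2 fell (Pnpla2 and Mgll). Dgat1 and Hilpda did not pass the test. Over all 12315 genes tested, 13% rose (1602) and 9.7% fell (1195). The median log2 difference of the 10 genes was 1.06, beside -0.17 over all genes tested. The 10 genes were chosen with earlier results of these data known. Their counts and medians beside all genes, here and below, are therefore a description. With median ratio scaling in place of the deposited scaling, the median over all genes was -0.04 and the calls were 1821 higher and 670 lower.

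Without selection on the reporter, the same 3 genes passed the test in both plaque comparisons. Soat1, Nceh1 and Ch25h rose in APP-KI against WT, where 2.22% of 12409 genes rose and 1.93% fell, and they rose in APP-KI; C3aR-KO against C3aR-KO, where 3.96% rose and 2.97% fell. The median log2 differences of the 10 genes were 0.82 and 0.85, beside -0.01 and -0.03 over all genes. With the 4 sparse libraries left out, Plin2, Plin3, Soat1, Nceh1, Dgat2 and Ch25h rose and Pnpla2 and Mgll fell in APP-KI against WT, where 13.2% of 12566 genes rose and 14.7% fell. APP-KI is then replicates 5 and 6, and leaving out replicate 5 as well ended the calls of Plin3 (0.36, limma adjusted p = 0.0611), Dgat2 (0.94, adjusted p = 0.085) and Pnpla2 (-0.17, adjusted p = 0.278). The same 6 genes rose and Pnpla2 fell in APP-KI; C3aR-KO against C3aR-KO, where 13.2% of genes rose and 18.2% fell. C3aR-KO is then 1 library, replicate 3, which is assumed to vary like the other groups. The groups set against each other in the 3 plaque comparisons share no library. The plaque comparisons without the reporter sort come from 1 fit, with a shared series term and spread, so they are not independent. The comparisons for loss of C3ar1 use the same WT and APP-KI libraries again.

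**Figure D2:**
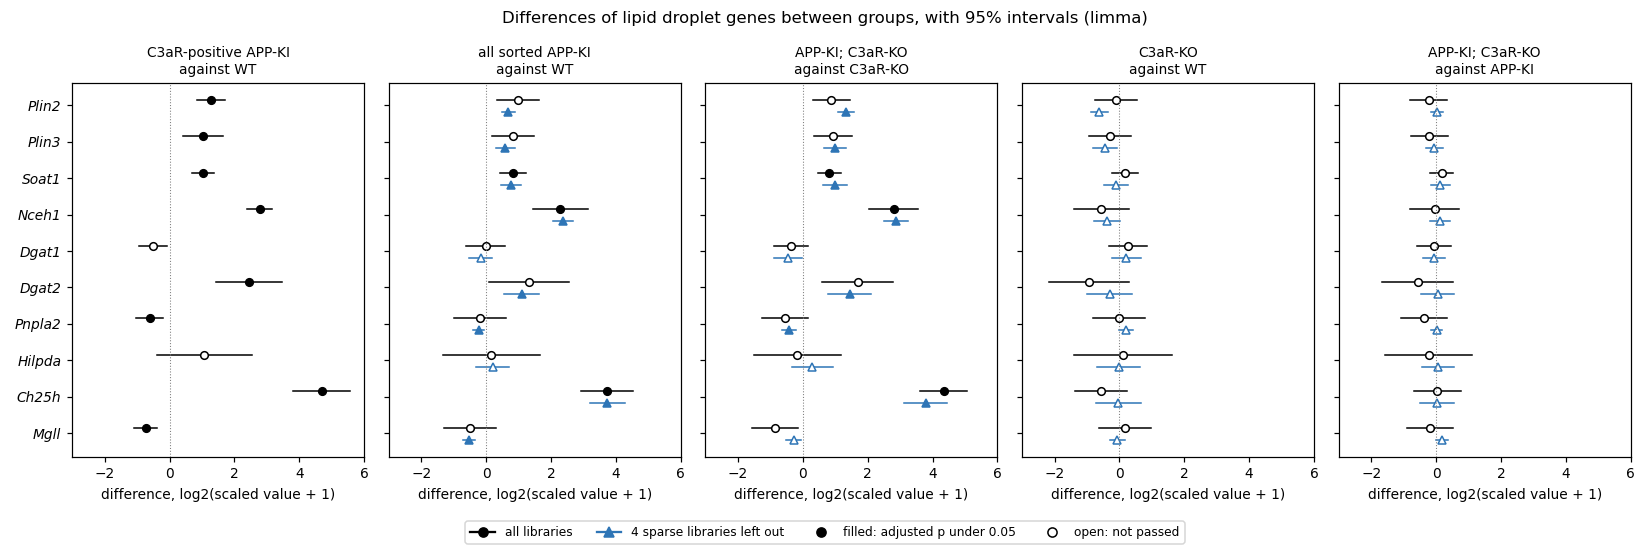
Log2 difference with its 95% confidence interval for each of the 10 genes in 5 comparisons (one panel each); black circles stand for all libraries and blue triangles for the fit without the 4 sparse libraries, and filled symbols mark an adjusted p under 0.05. Soat1, Nceh1 and Ch25h are filled to the right of 0 in all 3 plaque comparisons, and no symbol is filled in either panel that tests loss of C3ar1.

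Among the coat proteins, Plin2 (perilipin 2, which covers droplets in most cells and is stabilized by them; chr4:86648386-86670060 in GRCm38, minus strand) was higher in plaque-bearing brain. Its scaled values were 32.1, 34.8 and 38.5 in WT, C3aR+ and 73.9, 75.1 and 116 in APP-KI, C3aR+. These groups did not overlap, and the log2 difference was 1.28 (SE 0.195, limma adjusted p = 0.00166). Without the reporter sort the values were 28.4, 50.6 and 50.2 in WT and 111, 41.7 and 88.8 in APP-KI. Here the libraries overlapped through APP-KI replicate 5, at 41.7, and the log2 difference of 0.99 did not pass the test (SE 0.301, limma adjusted p = 0.0983). Without that library it was 1.30 (adjusted p = 0.0169), and without the 4 sparse libraries 0.69 (adjusted p = 0.000649).

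In the C3aR-KO background Plin2 had 39.7, 30.3 and 33.3 in C3aR-KO and 59.2, 45.7, 90.5, 88.3 and 76.7 in APP-KI; C3aR-KO. All 5 APP-KI; C3aR-KO libraries lay above all 3 of C3aR-KO. The log2 difference of 0.88 missed the threshold (limma adjusted p = 0.0667), and was 1.33 (adjusted p = 7.62e-05) without the sparse libraries. It also passed when APP-KI replicate 4 or 5, which enter the shared estimate of the spread, was left out (adjusted p = 0.02 and 0.0241).

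Plin3 (perilipin 3, which moves from the cytosol to newly forming droplets; chr17:56277476-56292873, minus strand) had 10.2, 19.3 and 18.5 in WT, C3aR+ and 33.3, 30.0 and 34.7 in APP-KI, C3aR+. The log2 difference was 1.03 (SE 0.274, limma adjusted p = 0.024), with no overlap. This call rested on single libraries: leaving out WT, C3aR+ replicate 1 gave 0.76 (adjusted p = 0.0618), and leaving out APP-KI, C3aR+ replicate 1, 2 or 3 gave 1.02, 1.09 and 0.99 (adjusted p = 0.0577, 0.052 and 0.0585). It was also lost when genes of low value were kept in the test (adjusted p = 0.0554).

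Without the reporter sort Plin3 had 12.9, 20.8 and 21.3 in WT and 44.6, 25.2 and 26.9 in APP-KI. The groups did not overlap, and the log2 difference was 0.83 (limma adjusted p = 0.199), or 0.59 (adjusted p = 0.00757) without the sparse libraries. In C3aR-KO the values were 10.7, 16.5 and 14.4, and in APP-KI; C3aR-KO 30.3, 20.4, 28.7, 29.4 and 32.3, again without overlap. The log2 difference between these was 0.93 (limma adjusted p = 0.055), 0.90 without APP-KI replicate 4 (adjusted p = 0.0263), 1.08 without C3aR-KO replicate 2 (adjusted p = 0.038) and 0.99 (adjusted p = 0.00162) without all 4 sparse libraries.

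Hilpda, a small droplet protein induced by hypoxia that inhibits the lipase Pnpla2 (chr6:29272488-29275446, plus strand), had low values, and few reads in the C3aR+ libraries. It had 8, 22 and 43 reads in WT, C3aR+, for scaled values of 0.257, 1.07 and 1.53, and 39, 27 and 108 reads in APP-KI, C3aR+, for 2.02, 1.17 and 8.49. These overlapped, and the log2 difference of 1.08 had a 95% confidence interval of -0.37 to 2.53 (limma adjusted p = 0.249). In the other groups it ran from 1.51 to 2.34 in WT, 1.37 to 2.58 in APP-KI, 0 to 7.34 in C3aR-KO and 0 to 2.88 in APP-KI; C3aR-KO. The value of 7.34 was in C3aR-KO replicate 2, a sparse library. The libraries at 0 were C3aR-KO replicate 1 and APP-KI; C3aR-KO replicate 1, both sparse, in which a count of 0 allows up to 0.0442 and 0.0679 (3 reads, counting error only). No comparison of Hilpda passed the test, also without the sparse libraries.

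The diacylglycerol acyltransferases, which catalyse the last step of triglyceride synthesis, differed from each other. Dgat2 (chr7:99153658-99182719, minus strand) had 23 to 34 reads in WT, C3aR+, for scaled values of 1.09, 1.12 and 1.14, and 146 to 222 reads in APP-KI, C3aR+, for 7.55, 8.63 and 17.5. It rose by a log2 difference of 2.44 (SE 0.454, limma adjusted p = 0.00466), and this call held with each of the 6 libraries left out. The pseudocount of 1 shrinks this value too, which was 3.11 with a pseudocount of 0.1, 3.43 with edgeR and 3.48 with DESeq2 on recovered reads. Dgat1 (chr15:76502015-76511953, minus strand) had 35.3, 38.0 and 42.7 in WT, C3aR+ and 27.8, 31.0 and 22.3 in APP-KI, C3aR+. Those libraries did not overlap, but the log2 difference of -0.51 did not pass (SE 0.196, limma adjusted p = 0.0899).

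Without the reporter sort Dgat2 had 2.59, 3.44 and 6.47 in WT and 6.83, 7.92 and 9.95 in APP-KI. The log2 difference was 1.31 (limma adjusted p = 0.35), and 1.10 (adjusted p = 0.00877) without the sparse libraries. C3aR-KO libraries had 0, 0.535 and 3.55 and APP-KI; C3aR-KO libraries 0.769, 7.26, 9.41, 11.2 and 14.2. The lowest value of each group came from a sparse library, and the log2 difference was 1.69 (limma adjusted p = 0.0662), 2.19 (adjusted p = 0.00283) without APP-KI; C3aR-KO replicate 1 and 1.44 (adjusted p = 0.00611) without all 4. Dgat1 ran from 26.5 to 32.0 in WT, 26.5 to 47.9 in APP-KI, 33.5 to 50.0 in C3aR-KO and 19.0 to 49.5 in APP-KI; C3aR-KO, with log2 differences of -0.02 (limma adjusted p = 0.995) and -0.35 (adjusted p = 0.456) in the plaque comparisons.

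Soat1 (sterol O-acyltransferase 1, which esterifies cholesterol for storage; chr1:156424525-156474331, minus strand) was higher in all 3 plaque comparisons. Its scaled values were 207, 182 and 172 in WT, C3aR+ and 366, 318 and 469 in APP-KI, C3aR+, with no overlap and a log2 difference of 1.02 (SE 0.152, limma adjusted p = 0.00146). WT had 166, 186 and 189 and APP-KI 348, 261 and 334, a log2 difference of 0.82 (SE 0.187, limma adjusted p = 0.0227). C3aR-KO had 219, 200 and 181 and APP-KI; C3aR-KO 420, 274, 327, 344 and 449, a log2 difference of 0.82 (limma adjusted p = 0.00741). None of these groups overlapped.

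The second Soat1 call was lost when any of 5 libraries was left out: WT replicate 4, 5 or 6 (log2 differences 0.76, 0.83 and 0.84, adjusted p = 0.167, 0.0729 and 0.0613), APP-KI replicate 4 (0.73, adjusted p = 0.0749) or APP-KI replicate 6 (0.78, adjusted p = 0.133). Without the 4 sparse libraries it was 0.77 (adjusted p = 0.0026). The third call was lost without C3aR-KO replicate 3 (0.68, adjusted p = 0.0677), and was 1.00 (adjusted p = 0.00193) without the sparse libraries.

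Nceh1 (neutral cholesterol ester hydrolase 1, which frees stored cholesterol; chr3:27182965-27284608, plus strand) rose further than Soat1. It had 20.2, 20.4 and 18.4 in WT, C3aR+ and 126, 125 and 178 in APP-KI, C3aR+, a log2 difference of 2.78 (SE 0.174, limma adjusted p = 1.69e-05). WT had 20.7, 25.6 and 30.6 and APP-KI 61.8, 108 and 147, a log2 difference of 2.28 (SE 0.396, limma adjusted p = 0.00347). In C3aR-KO it had 17.2, 5.52 and 22.2 and in APP-KI; C3aR-KO 40.9, 99.9, 170, 156 and 201, a log2 difference of 2.80 (limma adjusted p = 0.000164). No group overlapped its control in these comparisons. The lowest library of APP-KI, of C3aR-KO and of APP-KI; C3aR-KO was a sparse one.

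The level of Soat1 relative to Nceh1 differed accordingly. Per kilobase, Soat1 was 4.80 to 5.50 times Nceh1 within the libraries of WT, C3aR+ and 1.36 to 1.56 times in APP-KI, C3aR+. In WT the ratio was 3.31 to 4.30 and in APP-KI 1.22 to 3.02, in C3aR-KO 4.37 to 19.5 and in APP-KI; C3aR-KO 1.03 to 5.51. The highest ratio of APP-KI, C3aR-KO and APP-KI; C3aR-KO belonged in each case to a sparse library. These ratios follow from the values above and are given as a description.

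**Figure D3:**
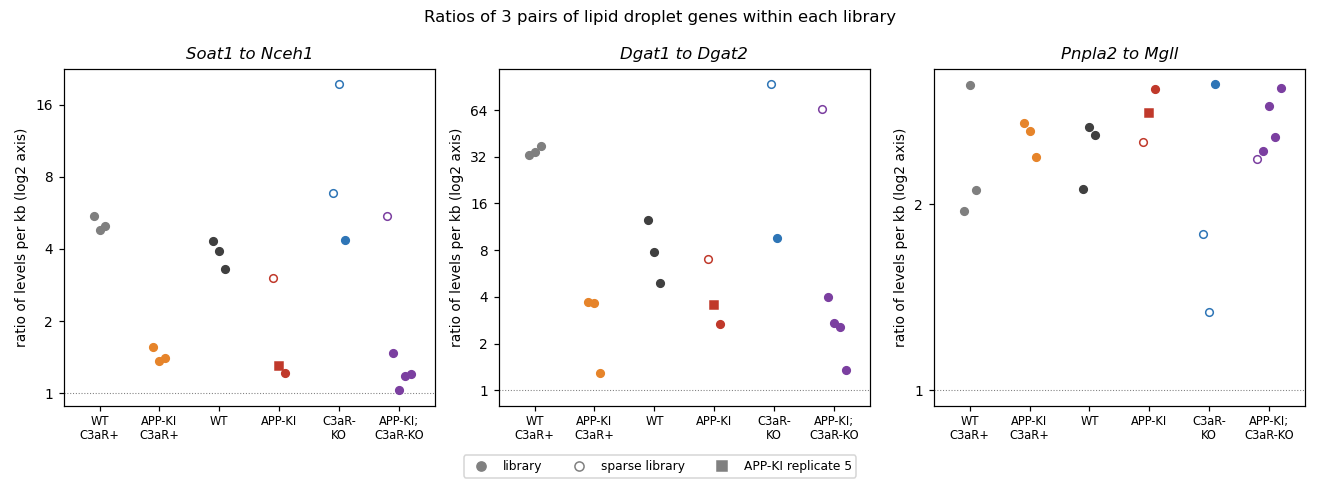
Ratio of scaled values per kilobase within each library (log axis) for Soat1 to Nceh1, Dgat1 to Dgat2 and Pnpla2 to Mgll, by group, with open points for the 4 sparse libraries and a square for APP-KI replicate 5; C3aR-KO replicate 1 has no Dgat ratio because Dgat2 has 0 reads there. Dgat1 to Dgat2 runs from 32.6 to 37.8 in WT, C3aR+ and from 1.29 to 3.72 in APP-KI, C3aR+, while Pnpla2 to Mgll spans 1.95 to 3.12 and 2.38 to 2.71. Without the reporter sort Dgat1 to Dgat2 overlaps, at 4.93 to 12.5 in WT and 2.69 to 7.07 in APP-KI. It also overlaps between C3aR-KO (9.52 to 94.3) and APP-KI; C3aR-KO (1.35 to 64.9).

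Ch25h, which encodes the enzyme that makes 25-hydroxycholesterol, a sterol that activates Soat1 and lowers sterol synthesis, is a single-exon gene (chr19:34473778-34475164, minus strand). It had the largest log2 difference of the 10 genes in each plaque comparison. Its promoter and that of Mgll, the gene of the 10 with the most negative log2 difference in the C3aR+ comparison, are shown as the bases before the first exon (RefSeq, GRCm38.p6, each written 5′ to 3′ on the gene's strand). The Ch25h stretch is chr19:34475165-34475398 on the minus strand, with a cyclic AMP response element (TGACGTCA) in capitals, which begins at -61 from the RefSeq start. The Mgll stretch is chr6:88724162-88724411 on the plus strand, with an E-box (CACGTG) in capitals, which begins at -44.
Ch25h: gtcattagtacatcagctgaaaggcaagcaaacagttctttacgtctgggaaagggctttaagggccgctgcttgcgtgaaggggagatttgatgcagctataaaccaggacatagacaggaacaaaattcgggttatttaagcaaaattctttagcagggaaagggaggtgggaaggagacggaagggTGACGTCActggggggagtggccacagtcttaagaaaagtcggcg
Mgll: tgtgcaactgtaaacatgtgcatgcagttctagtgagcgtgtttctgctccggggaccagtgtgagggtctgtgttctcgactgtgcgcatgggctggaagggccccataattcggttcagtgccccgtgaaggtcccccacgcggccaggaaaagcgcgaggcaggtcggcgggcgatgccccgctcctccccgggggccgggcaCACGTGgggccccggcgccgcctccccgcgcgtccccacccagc

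Of the 10 genes, 8 had RefSeq promoter entries, with 10 windows of 250 bases before a start. Dgat1 and Dgat2 had none. On either strand, TGACGTCA was found in 1 gene, Ch25h, and in 1.5% of all 32851 windows. CACGTG was found in 2, Nceh1 and Mgll, and in 6.0% of windows. ACGTG, the core of the hypoxia response element, which every CACGTG contains, was found in 3, Nceh1, Mgll and Hilpda. These are 4 of the 10 windows, beside 16.6% of all windows. The Nceh1 E-box lies in bases that GENCODE annotates as its first exon, and its promoter is not shown. The Hilpda ACGTG begins at -43 of a window whose last 138 bases lie inside the GENCODE gene. The Hilpda window that lies wholly before the gene has none. A match is a description of these letters and not evidence of binding.

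Ch25h was almost silent in WT, C3aR+, with 8 to 18 reads and scaled values of 0.579, 0.391 and 0.320. APP-KI, C3aR+ had 499 to 868 reads and 25.8, 37.6 and 47.2, a log2 difference of 4.69 (SE 0.388, limma adjusted p = 6.76e-05). The pseudocount of 1 shrinks this value as well. With a pseudocount of 0.1 it was 6.11, and edgeR on the recovered reads gave 6.50. WT had 0.888, 2.64 and 1.27 and APP-KI 20.9, 22.5 and 40.2, a log2 difference of 3.73 (SE 0.38, limma adjusted p = 3.37e-05). In C3aR-KO it had 0, 0 and 1.78 and in APP-KI; C3aR-KO 25.2, 28.1, 47.3, 31.0 and 31.7, a log2 difference of 4.34 (limma adjusted p = 1.28e-06). The C3aR-KO libraries at 0 are both sparse, where 3 reads would be 0.0442 and 0.0472. Without the sparse libraries the difference was 3.79 (adjusted p = 5.84e-05). Ch25h shares exon bases with Gm26902 on the opposite strand, as Mgll does with Gm26588, and where counting ignored strand their reads cannot be told apart. All 9 WT and C3aR-KO libraries lay below all 11 APP-KI and APP-KI; C3aR-KO libraries for Ch25h, for Nceh1 and for Soat1.

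**Figure D4:**
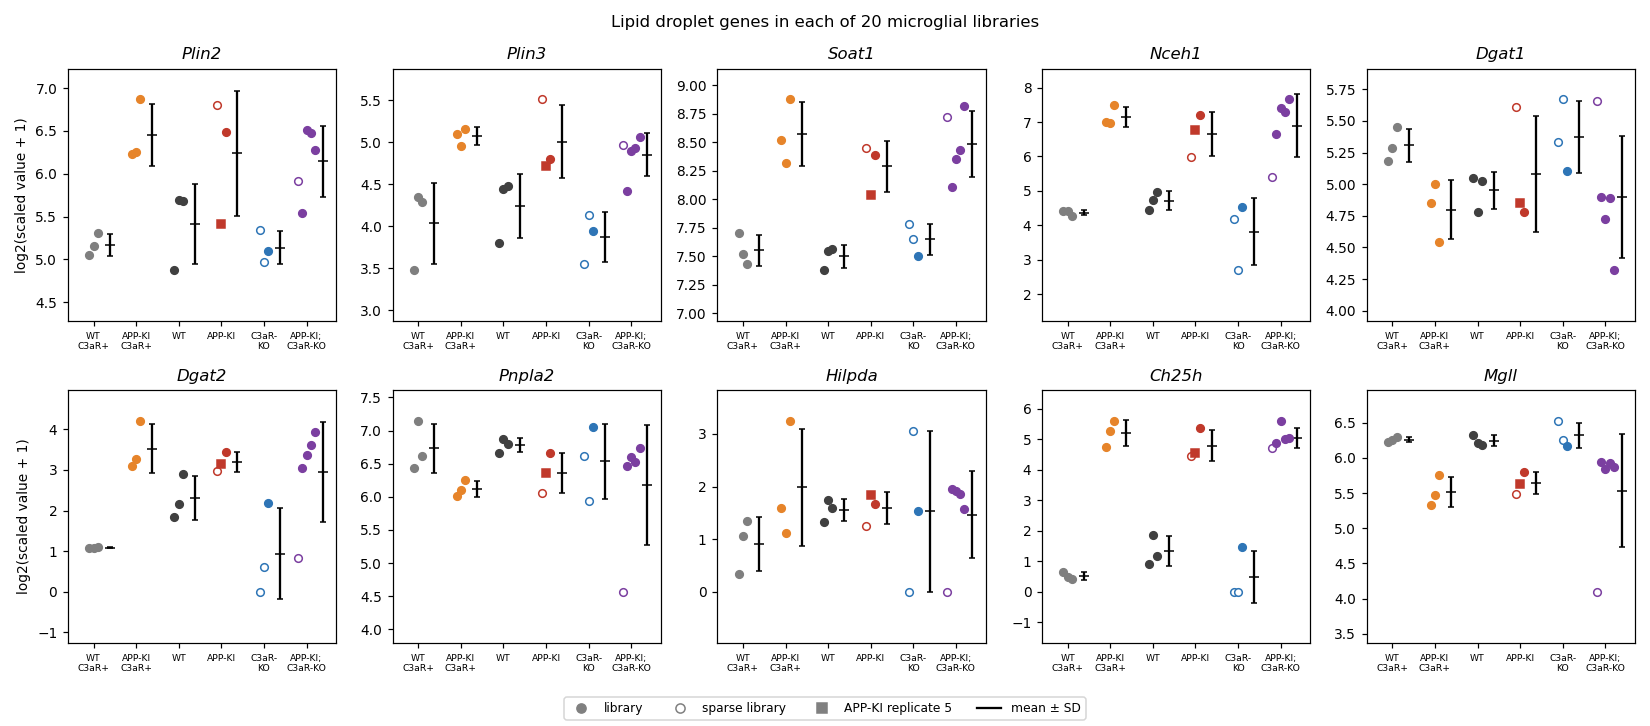
Log2(scaled value + 1) of each of the 10 genes (one panel each) in the 20 libraries by group; each point is a library, open points mark the 4 sparse ones, the square APP-KI replicate 5, and bars the mean ± SD. In scaled values, Ch25h lies at 0.320 to 0.579 in WT, C3aR+ and at 25.8 to 47.2 in APP-KI, C3aR+, and Mgll at 73.5 to 77.4 and 39.3 to 52.9.

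The lipases of triglyceride breakdown had lower values in APP-KI, C3aR+. Mgll (monoacylglycerol lipase, which splits the last fatty acid from glycerol and also degrades the endocannabinoid 2-arachidonoylglycerol; chr6:88724412-88828360, plus strand) had 73.5, 75.6 and 77.4 in WT, C3aR+ and 39.3, 43.4 and 52.9 in APP-KI, C3aR+. It fell without overlap, with a log2 difference of -0.74 (SE 0.152, limma adjusted p = 0.00772), or -0.61 (adjusted p = 0.023) with median ratio scaling. WT had 79.5, 73.3 and 71.7 and APP-KI 43.8, 48.6 and 54.8, which did not overlap either, with a log2 difference of -0.50 (limma adjusted p = 0.742). Without APP-KI; C3aR-KO replicate 1, whose value of 16.1 lay far below the other 4 of its group and which enters the shared estimate of the spread, it was -0.62 (adjusted p = 0.0156), and without the 4 sparse libraries -0.53 (adjusted p = 0.00123).

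C3aR-KO libraries had 91.0, 75.5 and 71.1 of Mgll, above the 16.1, 60.4, 56.1, 59.9 and 57.5 of APP-KI; C3aR-KO. The log2 difference of -0.86 did not pass (limma adjusted p = 0.148), and was -0.29 (adjusted p = 0.0513) without the sparse libraries. All 9 WT and C3aR-KO libraries therefore lay above all 11 APP-KI and APP-KI; C3aR-KO libraries for this gene.

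Pnpla2 (adipose triglyceride lipase, which takes the first fatty acid from triglyceride; chr7:141455198-141460743, plus strand) had 85.3, 140 and 97.2 in WT, C3aR+ and 63.3, 67.7 and 75.0 in APP-KI, C3aR+. The groups did not overlap and the log2 difference was -0.61 (SE 0.184, limma adjusted p = 0.0394). This call was lost when genes of low value were kept (adjusted p = 0.0929), with median ratio scaling (-0.48, adjusted p = 0.108), with edgeR (-0.54, adjusted p = 0.0862) and DESeq2 (-0.51, adjusted p = 0.0906) on recovered reads, and without WT, C3aR+ replicate 2 (-0.41, adjusted p = 0.125) or 3 (-0.67, adjusted p = 0.0736) or APP-KI, C3aR+ replicate 1 (-0.56, adjusted p = 0.0951) or 2 (-0.60, adjusted p = 0.0905). WT had 100, 116 and 111 and APP-KI 65.5, 81.2 and 100, with a log2 difference of -0.18 (limma adjusted p = 0.974), or -0.23 (adjusted p = 0.047) without the sparse libraries. C3aR-KO had 96.7, 60.1 and 132 and APP-KI; C3aR-KO 22.7, 87.5, 96.0, 91.6 and 105, which overlapped, with a log2 difference of -0.54 (limma adjusted p = 0.385), or -0.42 (adjusted p = 0.00863) without the sparse libraries.

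Loss of C3ar1 gave no call among the 10 genes, in WT or in APP-KI. For C3aR-KO against WT, limma called 1 of 12409 genes (0.00806%), C3ar1 itself, and 0 of the 10. None of the 10 had an unadjusted limma p under 0.05, beside 123 higher and 221 lower over all 12409 genes. That share is small too, so 0 of the 10 does not set these genes apart. edgeR and DESeq2 also called 0 of the 10. Without the sparse libraries, where C3aR-KO is 1 library, the log2 differences of the 10 genes ran from -0.62 to 0.21. Plin2 had -0.62 and Plin3 -0.45, given as a description. With all libraries these were -0.11 and -0.30. Within series 24, where both C3aR-KO libraries are sparse, they were 0.28 and 0.04.

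For loss of C3ar1 in APP-KI (APP-KI; C3aR-KO set against APP-KI), limma again called 1 of 12409 genes (0.00806%) and 0 of the 10, with 0 at an unadjusted p under 0.05 and 0 called by edgeR or DESeq2. Over all 12409 genes, 38 higher and 109 lower differences had an unadjusted limma p under 0.05. With so few over all genes, 0 of the 10 does not set these genes apart. The log2 difference was -0.22 (95% confidence interval -0.80 to 0.35) for Plin2, 0.18 (-0.18 to 0.53) for Soat1, -0.04 (-0.80 to 0.71) for Nceh1 and 0.04 (-0.68 to 0.77) for Ch25h. Dgat2, at -0.57, had the interval -1.67 to 0.53, and Hilpda, at -0.23, the interval -1.57 to 1.11, the widest of the 10. Without the sparse libraries the intervals narrowed, to -0.17 to 0.22 for Plin2, -0.15 to 0.42 for Soat1, -0.17 to 0.42 for Nceh1, -0.50 to 0.55 for Ch25h and -0.14 to 0.19 for Pnpla2. Mgll was then at 0.18 (0.01 to 0.35, limma adjusted p = 0.832), with an unadjusted p under 0.05.

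Whether the plaque difference itself depended on C3ar1 was tested as an interaction. Limma called 0 of 12409 genes (0%) and 0 of the 10, for which the terms ran from -0.36 to 0.62 with 0 at an unadjusted p under 0.05. Over all 12409 genes, 111 higher and 92 lower terms had an unadjusted p under 0.05, edgeR called 0 and DESeq2 1. Here too 0 of the 10 is no result particular to these genes. Without the sparse libraries, where C3aR-KO is 1 library, the terms ran from -0.28 to 0.64. Plin2 had 0.64 and Nceh1 0.50, given as a description.

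The genotype difference with the reporter sort was set against that without it in the same way. Limma called 0 of 12592 genes (0%) and 0 of the 10. The terms of the 10 genes ran from -0.54 to 1.37, and 1, Dgat2 at 1.37, had an unadjusted p under 0.05 (limma adjusted p = 0.667). Over all genes 555 higher and 347 lower terms did, edgeR called 0 and DESeq2 37, none of them among the 10. The larger number of calls in the C3aR+ comparison is thus not shown to be a larger difference in these genes.

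The comparisons within each library series give the same question without mixing series, but series 24 holds all 4 sparse libraries and APP-KI replicate 5. Both C3aR-KO libraries of series 24 are sparse, with 0 reads for Ch25h. For APP-KI against WT, the log2 differences in series 24 (2 against 1 library) and 26 (1 against 2) were 0.86 and 0.83 for Soat1, 1.93 and 2.36 for Nceh1 and 3.59 and 3.84 for Ch25h. Plin2 had 1.23 and 0.80 and Mgll -0.77 and -0.40. For APP-KI; C3aR-KO against C3aR-KO, Soat1 had 0.69 and 1.03, Nceh1 2.58 and 2.92 and Ch25h 4.79 and 3.73. The directions were the same in both series for these genes. For loss of C3ar1 in APP-KI, Soat1 had 0.17 and 0.15, Plin2 -0.38 and -0.06 and Pnpla2 -0.69 and -0.04, of the same sign in both series. The other 7 genes differed in sign, among them Nceh1 at -0.35 and 0.25, Ch25h at 0.29 and -0.16, Mgll at -0.54 and 0.08 and Dgat2 at -1.13 and 0.19. These within-series values, from 1 to 3 libraries a group, were not tested.

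Other genes of the same steps were taken from 4 lists, whose counts stand beside the shares of 13% higher and 9.7% lower over all genes in this comparison. Of 20 listed symbols of droplet coats and droplet assembly, 19 were in the deposited values. In the C3aR+ comparison 12 could be tested and 5 rose, with a median log2 difference of 0.18 beside -0.17 over all genes. Vps13c, which carries lipid at contacts between organelles and droplets, rose in scaled value from 318 ± 26.5 to 682 ± 169 (SD, 3 libraries in each group), by a log2 difference of 1.07 (limma adjusted p = 0.00258). Mospd2, a tether of the endoplasmic reticulum to droplets, rose by 0.85 (adjusted p = 0.0123). The seipin gene Bscl2 and its partner Tmem159 (promethin), which together mark where droplets form, rose by 0.72 (adjusted p = 0.0144) and 1.13 (adjusted p = 0.0123), and Aup1, a ubiquitin-ligase adaptor on droplets, by 0.43 (adjusted p = 0.0258).

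Among 8 listed genes of the sterol ester cycle and lysosomal sterol release, 6 were tested and 2 rose, with a median of 0.51. Lipa, the lysosomal acid lipase that frees cholesterol from ingested esters, rose from 82.9 ± 3.69 to 196 ± 52.5, by a log2 difference of 1.20 (limma adjusted p = 0.00117). Npc2, which carries cholesterol inside the lysosome, rose from 225 ± 10.9 to 680 ± 211, a log2 difference of 1.55 (limma adjusted p = 0.000481). Both calls held with each of the 6 libraries left out.

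Of 12 listed symbols of lipolysis, 11 were in the deposited values and 9 were tested. Of these 1 rose and 1 fell, with a median of -0.28, a share in each direction near that over all genes. Lipe (hormone-sensitive lipase, which acts between Pnpla2 and Mgll) fell from 63.9 ± 4.42 to 40.9 ± 1.32, with a log2 difference of -0.63 (limma adjusted p = 0.0115). Abhd12, a lysophosphatidylserine lipase, rose by 0.81 (adjusted p = 0.00258). Of 15 listed genes of glycerolipid synthesis, 10 were tested, and again 1 rose and 1 fell, near the share over all genes, with a median of -0.01. Agpat2, which makes phosphatidic acid, rose by 1.51 (limma adjusted p = 0.0301), a call kept in 2 of 6 fits that left out a library and lost without the filter or the trend, and the phosphatidic acid phosphatase Lpin2 fell by 0.50 on the log2 scale (adjusted p = 0.0134), a call kept in 4 of 6 and lost with median ratio scaling, edgeR and DESeq2. Aup1 kept its call in 3 of 6 and Bscl2 in 5 of 6, and both lost it without the trend. Lipe kept its call in 5 of 6.

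Without the reporter sort 1 of 37 of these genes tested (2.7%) passed in each plaque comparison, a share near that over all genes (2.22% higher and 1.93% lower, and 3.96% and 2.97%). Vps13c rose in APP-KI against WT (285 ± 11.0 to 636 ± 216, n = 3 each; log2 difference 1.03, limma adjusted p = 0.0163), a call kept in 10 of 14 fits that left out a library. It was lost without the trend and with the compared groups alone. Lipe fell in APP-KI; C3aR-KO against C3aR-KO (73.2 ± 2.95 with n = 3 to 40.0 ± 7.02 with n = 5; log2 difference -0.79, limma adjusted p = 0.00552), a call kept in 13 of 14. Without the 4 sparse libraries, 8 rose in APP-KI against WT (Tmem159, Vps13c, Mospd2, Agpat2, Agpat4, Lipa, Npc2 and Abhd12) and 5 fell (Lpin1, Lpin2, Cyp27a1, Lipe and Spg20) of 36 tested, beside 13.2% and 14.7% over all genes. In APP-KI; C3aR-KO against C3aR-KO, 10 rose (Bscl2, Tmem159, Pcyt1a, Vps13c, Mospd2, Agpat4, Lipa, Npc2, Abhd6 and Abhd12) and 7 fell (Plin4, Gpat2, Lpin1, Lpin2, Cyp27a1, Lipe and Pnpla6) of 36, beside 13.2% and 18.2%. None of these listed genes passed in the comparisons that test loss of C3ar1 or in either interaction.

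Other markers moved with the plaque comparisons. The summed scaled value of 7 plaque-reactive microglial genes (Apoe, Trem2, Cst7, Itgax, Lpl, Gpnmb and Axl) was 4530 to 5770 in WT, C3aR+ and 24600 to 40300 in APP-KI, C3aR+, 3890 to 6960 in WT and 16200 to 37700 in APP-KI, and 3830 to 5250 in C3aR-KO and 12300 to 40300 in APP-KI; C3aR-KO. All 7 rose in the C3aR+ comparison. The 7 microglial markers summed to 23100 to 24900 and 16300 to 17500 in the C3aR+ groups, with 5 of 7 lower by the test (P2ry12, Tmem119, Cx3cr1, Sall1 and Siglech). Their sums elsewhere were 26600 to 28900 in WT, 10200 to 21600 in APP-KI, 15800 to 26800 in C3aR-KO and 8860 to 23600 in APP-KI; C3aR-KO. The 6 border macrophage markers summed to 466 to 693 and 182 to 404 in the C3aR+ groups, with 4 of 6 lower by the test (Mrc1, Cd163, Lyve1 and F13a1). The 4 endothelial markers summed to 33.8 to 71.9 in WT, C3aR+ and 165 to 321 in APP-KI, C3aR+, where Flt1 rose and Pecam1 fell. The 4 oligodendrocyte markers summed to 62.4 to 90.7 and 139 to 153 in these groups, with Mbp higher, and the 5 astrocyte markers to 23.9 to 69.1 and 16.0 to 72.4, with Gfap higher. In the other groups the oligodendrocyte sum was 76.2 to 133 in WT, 127 to 148 in APP-KI, 51.2 to 87.2 in C3aR-KO and 86.7 to 150 in APP-KI; C3aR-KO. The 4 neuronal markers stayed at or below 13.9 in every library. The part of these cells in the droplet gene values was not tested. In bulk RNA, fewer cells of a type and less RNA per cell cannot be told apart.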

How the data were processed

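RNA of sorted microglia was prepared with the SMARTer Total RNA Pico kit and counted by the authors (cutadapt, TopHat2, featureCounts and DESeq2 per the labels, mouse build mm10). The deposited values are named FPKM, but as tested on the files each is a signal equal to the read count divided by the upper quartile of that library's counts, with no division by length. They were multiplied by 35.2, and whole reads, within 0.01 of a read, were recovered for 100% of values. Groups were taken from the labels. The main test was limma 3.58.1 (R 4.3.3) with an intensity trend, run on log2(scaled value + 1) for genes averaging 1 or more, and Benjamini-Hochberg adjustment. The 6 C3aR+ libraries were fitted alone and the other 14 together with library series as a term. The sort interaction used 12 libraries. This replaced a design planned for FPKM and kept its test. edgeR 4.0.16 and DESeq2 1.42.0 on recovered reads, other scalings, filters and pseudocounts, a replicate block and leaving out each library were alternatives. Genes named outside the 10 were those of listed droplet pathways that passed a test, and the 3 genes most like Plin2, Ch25h and Mgll. The 10 genes and all lists were chosen with earlier results of these data known. Exons are from GENCODE M21. Scripts were tested on simulated data.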

Additional observations from a re-analysis of the deposited data

Results flagged for a closer look

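In the group of 5 APP-KI; C3aR-KO libraries, the only one large enough for this check, replicate 1 lay far from the other 4 for 2 of the 10 genes. The scaled value of Pnpla2 was 22.7 there and 87.5 to 105 in the others, a gap of 0.785 of the whole range. Mgll was 16.1 there and 56.1 to 60.4 in the others, a gap of 0.903 of the range. Chance alone flags about 1 in 20 such groups, and 10 were tested, 1 per gene. The same library is 1 of the 4 sparse ones, with 0 reads for Hilpda. The cause was not tested.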

How the results depend on the processing

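The number of the 10 genes that passed the test stayed within 1.5 times its value in most alternatives. At an adjusted p under 0.0005 in place of 0.05 it was 2 in the C3aR+ comparison (8 otherwise) and 1 in APP-KI against WT (3 otherwise). In APP-KI against WT it was 8 without the 4 sparse libraries and 5 without these and APP-KI replicate 5. In APP-KI; C3aR-KO against C3aR-KO it was 6 with DESeq2, 7 without the sparse libraries, 8 without these and APP-KI replicate 5, and 2 to 5 with 1 library left out. The fits without sparse libraries were added after seeing the data. Without length correction, 4 of the 10 genes changed rank in WT and in C3aR-KO, and 6 in each other group.

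Replicate numbers did not pair the libraries (correlation of deviations from -0.01 to 0.04 in C3aR+, 0.09 to 0.25 in WT and APP-KI, 0.00 to 0.22 in C3aR-KO and APP-KI; C3aR-KO). With a replicate block, 8 genes passed in the C3aR+ comparison, 2 in each other plaque comparison, where the Soat1 calls were lost (0.79 and 0.75, limma adjusted p = 0.0525 and 0.0629), and 0 elsewhere. Of the listed droplet genes, Agpat2 and Aup1 in the C3aR+ comparison and Lipe in APP-KI; C3aR-KO against C3aR-KO lost their calls with it.

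Changes of sign were seen in differences that did not pass the main test. Pnpla2 in APP-KI against WT is among them, although it fell in the fit without the 4 sparse libraries (-0.23). In APP-KI against WT, Dgat1 was 0.03 with median ratio scaling, 0.02 with edgeR, 0.04 with DESeq2, 0.13 with the replicate block and without the series term, 0.03 with the compared groups alone and -0.20 to 0.16 with 1 library left out, as Pnpla2 was -0.30 to 0.09 and Hilpda -0.02 to 0.30. For loss of C3ar1 in APP-KI, the replicate block gave Plin2 0.27, Nceh1 1.03, Dgat2 0.79, Pnpla2 0.36, Hilpda 0.17 and Mgll 0.29. There Nceh1 was 0.01 with edgeR and with DESeq2 and 0.23 without the series term, and Ch25h -0.12 with a pseudocount of 0.1, -0.08 with edgeR and -0.11 with DESeq2. Without the sparse libraries Plin2 was 0.03, Nceh1 0.12, Dgat2 0.05, Pnpla2 0.02, Hilpda 0.07 and Mgll 0.18. Without APP-KI replicate 5 as well, Plin3 was 0.17, Nceh1 0.20, Dgat2 0.20, Hilpda 0.17, Ch25h -0.12 and Mgll 0.07. With 1 library left out, Plin2 ran from -0.54 to 0.13, Plin3 from -0.46 to 0.07, Nceh1 from -0.20 to 0.28, Dgat1 from -0.25 to 0.12, Pnpla2 from -0.63 to 0.06, Hilpda from -0.50 to 0.21, Ch25h from -0.06 to 0.12 and Mgll from -0.40 to 0.27. In APP-KI; C3aR-KO against C3aR-KO, Hilpda was 0.30 without the sparse libraries, 0.31 without APP-KI replicate 5 as well, and -0.85 to 0.63 with 1 library left out. The causes were not tested. Depth limits Hilpda, Dgat2 and Ch25h in the WT, C3aR+ libraries, where they had 8 to 43 reads.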

Other observations

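Among the 10133 genes that averaged 5 or more in scaled value, those whose log2(scaled value + 1) ran most like that of Ch25h over the 20 libraries were C77080 (Pearson r 0.990), Dkk2 (0.984) and Atp6v0d2 (0.983), the last a subunit of the lysosomal proton pump. For Plin2 they were Uqcrh (0.938), a subunit of mitochondrial complex III, Rassf3 (0.919) and Cd83 (0.913). For Mgll they were Mta2 (0.977), Btbd3 (0.963) and Ppp2r5d (0.958). The points share their libraries, depth and the difference between genotypes, so these values describe likeness and were not tested.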
